A study of Mus musculus with 4 samples.

Results

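The genes described here are the 50 protein-coding mouse genes of the GENCODE M21 annotation whose symbols begin with Psma to Psmg and a number, out of 21853 protein-coding genes on chromosomes 1 to 19, X and Y. They comprise 31 constitutive subunits of the 26S proteasome, 8 inducible or tissue-restricted genes, 3 other regulators of the core particle (Psme3, Psme4 and Psmf1), 7 assembly factors and Psmc3ip, a recombination factor that bears the prefix only because its product binds Psmc3. The rule reads the symbol and uses no measured value. Foxr2 binding at their promoters was read from CUT&RUN peak lists, in which an antibody directs a nuclease to a tagged protein and the DNA released around it is sequenced. The question addressed was which of these genes carry Foxr2 at the start of transcription, and whether the constitutive and the inducible subunits differ.

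Both groups of libraries were made from C57BL/6J mouse lines that had been established ex vivo from brain tumors induced by in utero electroporation (IUE), the delivery of plasmids into the embryonic brain. The Foxr2 p53LOF group (genotype FOXR2 P53LoF in the labels, 2 replicates) came from a neurosphere line that carries V5-tagged FOXR2 under the ubiquitous CAG promoter and a guide RNA against Trp53. The V5 control group (genotype H3.3G34R in the labels, 2 replicates) came from a separate IUE tumor model that lacks the tag. All 4 libraries were prepared with the same V5 antibody from 500000 cells fixed in 0.1% formaldehyde for 1 minute, and both groups share the electroporated tumor background. The peak lists hold no expression values, so the identity of the lines was not checked against marker genes. FOXR2 in the Foxr2 p53LOF cells was an overexpressed transgene, and that group stands for a tumor line and not for a set of animals. For the control the paper writes of cell lines, so whether its replicates share a line is not known. No source used here says that replicates were separate cultures, so their spread may be technical.

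The proteasome is the main protease of the cytosol and nucleus and degrades proteins that have been marked with ubiquitin. Its 20S core is a barrel of alpha rings, which gate entry, and beta rings, of which Psmb5, Psmb6 and Psmb7 carry the active sites. The 19S particle caps the core: its base holds a ring of ATPases (Psmc genes) that unfold substrates, and its non-ATPase subunits (Psmd genes) bind and remove ubiquitin. Interferon gamma induces Psmb8, Psmb9 and Psmb10, which replace Psmb5, Psmb6 and Psmb7 to form the immunoproteasome, and the 11S activator made of Psme1 and Psme2. Psmb11 is the catalytic subunit of the thymic cortex, Psma8 is the testis counterpart of Psma7, and Psme2b is an intronless copy of Psme2. Constitutive subunits are made in all cell types and are known to be induced together by the transcription factor Nfe2l1 when proteasome activity falls.

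The stretches just upstream of the coding starts of 5 members are shown because these genes span the range of the binding data: Psmc5 had the highest peaks of all members, Psmb5 and its inducible and thymic counterparts Psmb8 and Psmb11 differed from each other, and Psmc4 is a constitutive subunit without a reproducible site. Each run reads 5′ to 3′ on the strand of the gene, ends at the base before the 5′-most coding start, lies clear of annotated exons and comes from the GRCm38.p6 RefSeq genome. Capitals mark the letters of any of 9 motifs that are listed further on.
Psmc5, chr11:106256080-106256153, plus strand: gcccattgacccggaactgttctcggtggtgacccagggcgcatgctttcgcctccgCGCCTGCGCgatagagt
Psmb5, chr14:54618023-54618172, minus strand: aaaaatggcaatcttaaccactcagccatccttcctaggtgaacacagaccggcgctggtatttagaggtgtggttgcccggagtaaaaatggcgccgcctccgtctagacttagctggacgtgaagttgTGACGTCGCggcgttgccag
Psmb8, chr17:34197571-34197720, plus strand: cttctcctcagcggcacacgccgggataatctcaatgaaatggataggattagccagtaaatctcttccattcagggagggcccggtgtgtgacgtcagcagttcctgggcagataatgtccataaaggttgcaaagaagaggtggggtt
Psmb11, chr14:54621283-54621432, plus strand: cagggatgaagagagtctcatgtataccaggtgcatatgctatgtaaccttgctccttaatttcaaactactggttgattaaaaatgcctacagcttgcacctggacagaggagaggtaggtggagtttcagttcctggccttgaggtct
Psmc4, chr7:28050102-28050251, minus strand: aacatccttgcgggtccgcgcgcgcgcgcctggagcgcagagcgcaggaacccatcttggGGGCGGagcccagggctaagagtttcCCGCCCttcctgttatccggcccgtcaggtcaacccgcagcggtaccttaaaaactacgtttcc
The Psmc5 run is the whole 74 bp between the starts of Psmc5 and of Ftsj3, which is read from the other strand, and its capitals are the NRF1 letters on the minus strand. The Psmb5 capitals are the letters of an antioxidant response element, the motif class read by Nfe2l1 and Nfe2l2, and the Psmc4 capitals are SP letters on both strands. The Psmb8 and Psmb11 runs hold none of the motif letters, and the SP letters of Psmb8 lie outside the run.

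A promoter peak here is a deposited peak that overlaps the 1 kb on either side of a coding transcript start, and its fold is the height of the summit over the background of the same library. A reproducible site is a stretch covered in both Foxr2 p53LOF replicates by peaks that passed the filters of the study's methods: a fold above 6, a −log10 q above 6, a length under 10000 bp and no overlap of 10 bp or more with a control peak. The Foxr2 p53LOF lists held 31909 and 38580 peaks, of which 13418 and 14864 passed, and the V5 control lists held 308 and 124. A fold above 6 needs 13 fragments at the summit in Foxr2 p53LOF replicate 1 and 18 in replicate 2, so weak peaks in both lists rest on few fragments. Values in brackets after a fold are exact 95% Poisson intervals of those fragments and cover counting error only.

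Foxr2 sites were found at most proteasome promoters. A reproducible site was present at 37 of the 50 members (74.0%), beside 39.3% of all protein-coding genes. Before the filter, 45 members had a promoter peak in replicate 1 (53.4% of all genes), 47 in replicate 2 (54.4%) and 45 in both (51.5%), and 3 had none in either (43.7% of all genes). No member had a promoter peak in V5 control replicate 1 (0.124% of all genes) or replicate 2 (0.0869%), and no control peak lay within 10 kb of any member. The members' peaks were close to those of other genes in height: the median fold was 10.2 in replicate 1 (range 3.98 to 34) and 11.5 in replicate 2 (4.60 to 39.8), against 8.84 and 9.86 over all genes with a promoter peak. Among the 37 members with a site, the lower of the 2 replicates' folds had a median of 11.0, against 10.2 over all genes with a site. Members thus exceeded all genes in the share with a site by more than in the height of the peaks, and neither difference was tested.

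**Figure D1:**
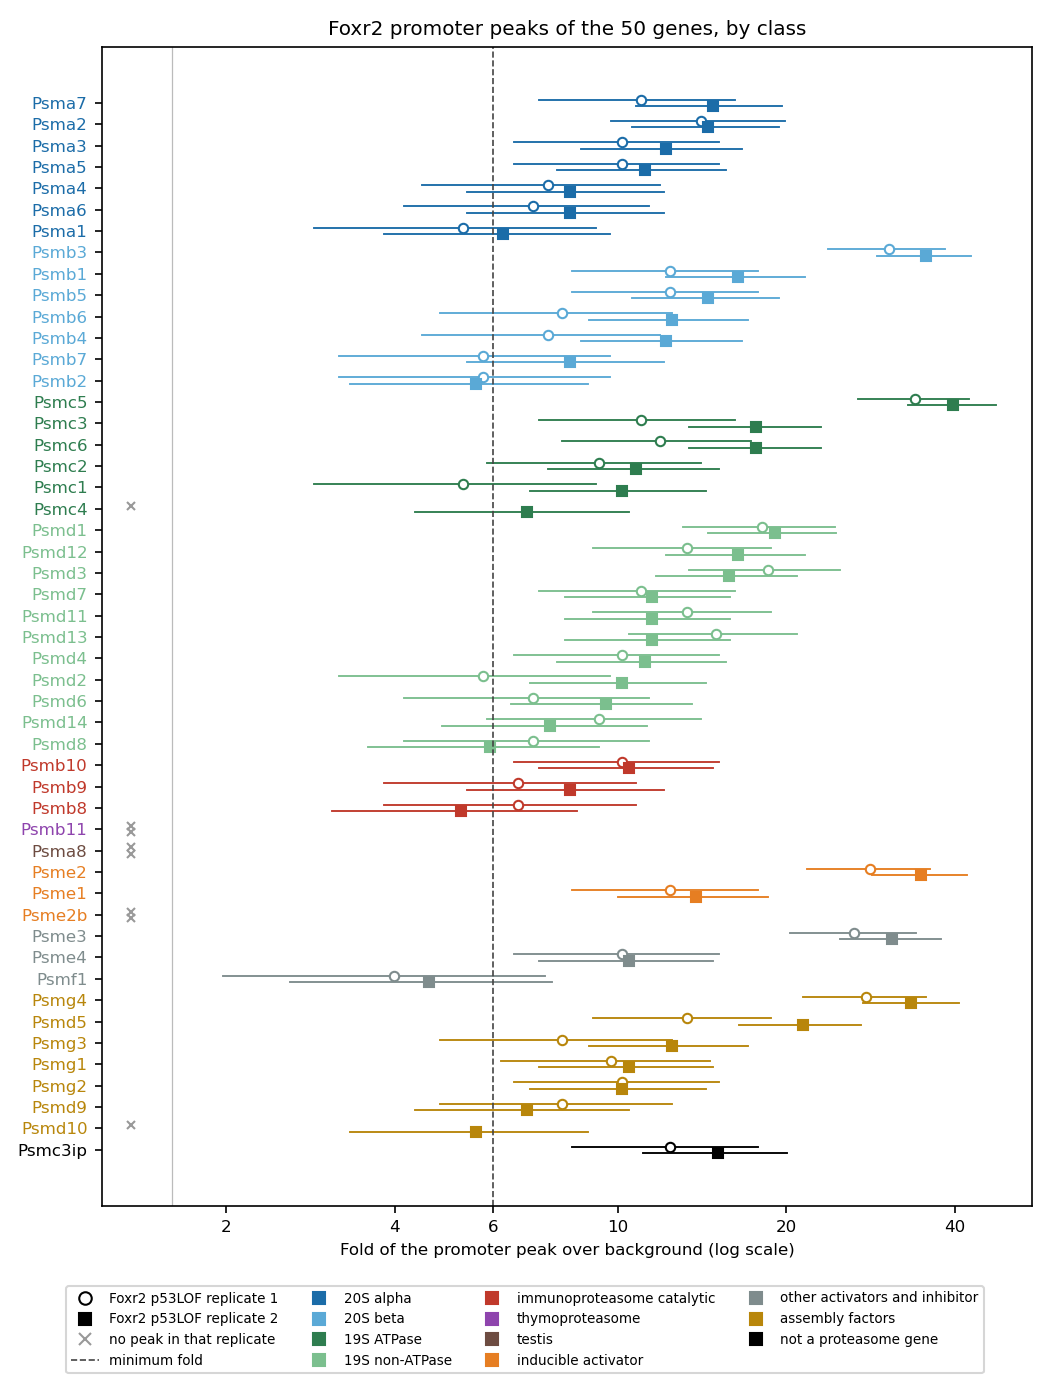
Fold of the promoter peak over background (log axis) for each of the 50 genes in Foxr2 p53LOF replicate 1 (open circles) and replicate 2 (filled squares), coloured by class, with 95% counting intervals as bars, crosses at the left for replicates without a peak and a dashed line at the minimum fold of 6. Psmc5, Psmb3, Psme2, Psmg4 and Psme3 stand apart above a fold of 26 in both replicates, and Psmb11, Psma8 and Psme2b have crosses only.

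The replicates ordered the members alike. Over the 45 members with a peak in both, Spearman's rho between the replicates' folds was 0.876 and Pearson's r of the log2 folds was 0.907, beside 0.876 and 0.892 over 11254 genes, where the points share the same libraries and are given as a description. Replicate 2 had the higher fold at 37 of the 45 members (82.2%), against 71.8% of all such genes. The counting intervals of the replicates overlapped at all 45 members.

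**Figure D2:**
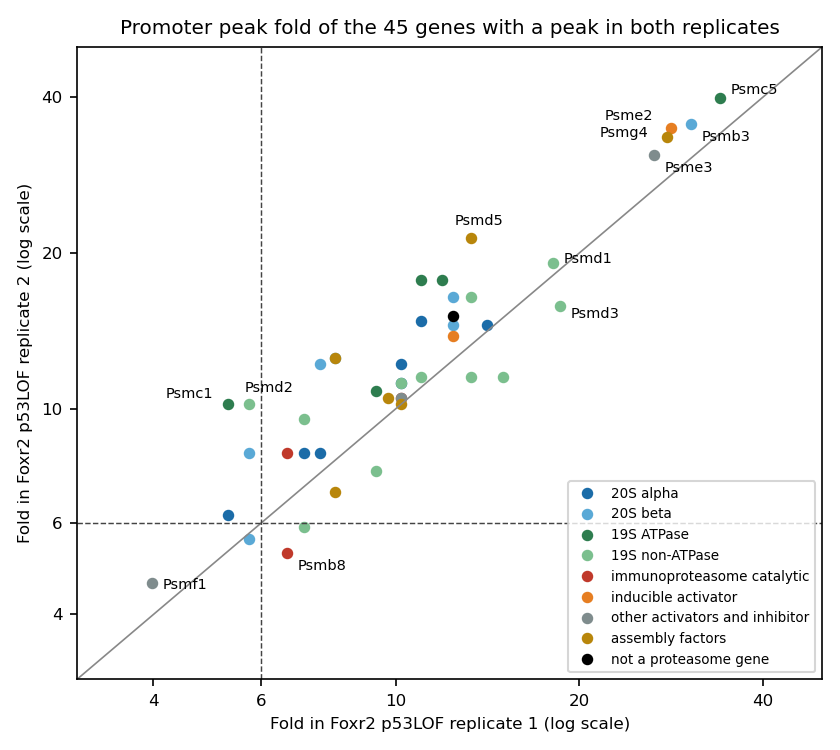
Fold in Foxr2 p53LOF replicate 2 against replicate 1 for the 45 genes with a promoter peak in both (log axes), coloured by class, with the line of equality and dashed lines at the minimum fold of 6. The points follow the line with rho of 0.876, 37 of them above it, and Psmc1 and Psmd2 are among the genes that lie on different sides of the minimum in the 2 replicates.

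The constitutive subunits carried sites across the whole complex. A reproducible site was present at 24 of 31 (77.4%), beside 39.3% of all genes and 68.3% of those with a CpG-rich promoter (one with a high share of CG dinucleotides, by limits given further on), and 30 of 31 had a peak in both replicates before the filter, beside 51.5% of all genes. Psmc4 was the exception, with a peak in replicate 2 alone. The 20S core had sites at 11 of 14 genes (78.6%) and the 19S particle at 13 of 17 (76.5%), so core and cap were alike in this count. The median folds were 9.06 and 12.2 in the core and 11.0 and 11.5 in the 19S particle.

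Among the alpha ring genes, 6 of 7 had a site, beside 39.3% of all genes. By the lower of the 2 replicates' folds, which sets the order within each class here and below, Psma2 was highest, with a fold of 14.1 (9.75 to 19.9) in replicate 1 and 14.5 (10.6 to 19.4) in replicate 2, and its start lies 75 bp from that of Mrpl32 on the other strand. Psma6 was lowest of those with a site, at 7.07 (4.15 to 11.4) and 8.21 (5.38 to 12.1). The Psma6 site covered the downstream of its 2 coding starts, which lie 14553 bp apart. Psma7, the counterpart of testis Psma8, had folds of 11.0 (7.24 to 16.2) and 14.8 (10.8 to 19.7), the latter just above that of Psma2. Psma3, Psma4 and Psma5 had folds between 7.51 and 12.2. Psma1 had no site, since its peak was at 5.30 (2.87 to 9.14) in replicate 1 and at 6.24 (3.83 to 9.68) in replicate 2.

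The beta ring genes spanned a wider range, with sites at 5 of 7, beside 39.3% of all genes. Psmb3, a structural subunit, had folds of 30.5 (23.8 to 38.5) and 35.5 (29.1 to 42.8), and its site at chr11:97698118-97704398 was the longest of any member at 6281 bp, against a median of 1786 bp over the members with a site and 1910 bp over all genes with one. Psmb4 was lowest of those with a site, at 7.51 (4.48 to 11.9) and 12.2 (8.61 to 16.7), and Psmb1 stood between them at 12.4 and 16.4. Of the catalytic subunits, Psmb5 (chymotrypsin-like activity) had folds of 12.4 (8.30 to 17.8) and 14.5 (10.6 to 19.4). Psmb6 (caspase-like activity) had folds of 7.95 (4.82 to 12.5) and 12.5 (8.89 to 17.1). Psmb7 (trypsin-like activity) had folds of 5.74 (3.18 to 9.70) and 8.21 (5.38 to 12.1) and no site, because the replicate 1 peak fell under the minimum. Psmb2 had no site with folds of 5.74 (3.18 to 9.70) and 5.59 (3.33 to 8.87), under the minimum in both replicates. The intervals of Psmb5, Psmb6 and Psmb7 overlapped each other in each replicate.

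Of the ATPases of the 19S base, 4 of 6 had a site, beside 39.3% of all genes and 68.3% of those with a CpG-rich promoter. Psmc5 was the highest of all 50 members, with folds of 34 (26.9 to 42.5) and 39.8 (33.0 to 47.5), which placed its lower fold above 99.2% of genes with a site. Its site lay at chr11:106254852-106257413 and covered the starts of Psmc5 and Ftsj3, which are 75 bp apart on opposite strands, with the 74 bp between them printed above. Psmc2 was lowest of those with a site at 9.28 (5.84 to 14.1) and 10.8 (7.52 to 15.2). Psmc3 and Psmc6 had the same fold of 17.7 in replicate 2, and 11.0 and 11.9 in replicate 1. Psmc1 had no site, with 5.30 (2.87 to 9.14) in replicate 1 and 10.2 (6.98 to 14.4) in replicate 2. Psmc4 had no peak in replicate 1 and a fold of 6.90 (4.34 to 10.5) in replicate 2. The ATPases therefore held both the strongest member and the only constitutive subunit with a peak in a single replicate.

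The non-ATPase subunits had sites at 9 of 11 genes, beside 39.3% of all genes, and folds from 5.74 to 19.1. Psmd1, the large scaffold subunit of the base, was highest by the lower fold at 18.1 (13.1 to 24.5) and 19.1 (14.5 to 24.6). Psmd3 was next by the lower fold at 18.6 (13.4 to 25.0) and 15.8 (11.7 to 20.9), above Psmd1 in replicate 1, and the intervals of the pair overlapped in each replicate. Psmd6 was lowest of those with a site in replicate 1, at 7.07 (4.15 to 11.4) and 9.53 (6.44 to 13.6). Psmd14, the deubiquitinase of the lid, was lowest of them in replicate 2, with folds of 9.28 and 7.56, and Psmd4, a ubiquitin receptor, 10.2 and 11.2. Psmd7, Psmd11, Psmd12 and Psmd13 had folds between 11.0 and 16.4. Psmd2, the other large base subunit, had no site, with 5.74 (3.18 to 9.70) in replicate 1 and 10.2 (6.98 to 14.4) in replicate 2. Psmd8 had no site, with 7.07 (4.15 to 11.4) and 5.91 (3.58 to 9.27), and was the only constitutive member that passed the filter in replicate 1 but not in replicate 2.

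Most constitutive genes without a site lay close to the minimum. Of these 7, 6 had a peak in both replicates, and in 4 of the 7 the peak failed the filter only in replicate 1. Just inside the minimum, the lower folds were 6.63 at Psmb9, 6.90 at Psmd9 and 7.07 at Psma6. Just outside it they were 5.91 at Psmd8 and 5.74 at Psmd2 and Psmb7. With replicate 2 alone the count of constitutive genes was 29 of 31, and with replicate 1 alone it was 25. The share of all genes under a single replicate is not given here, so these counts show only the effect of the rule on the members.

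The inducible and tissue-restricted genes were mixed, with sites at 4 of 8 (50.0%), beside 39.3% of all protein-coding genes. The genes with peaks were the interferon-inducible ones. The 3 of 8 without any peak, beside 43.7% of all genes, were the thymic, the testis and the intronless gene. Psme2, a subunit of the 11S activator, had folds of 28.3 (21.8 to 36.1) and 34.8 (28.5 to 42.1), in a site at chr14:55590375-55592654 that ranked as the third highest of all members. Psme1, its partner in the 11S ring, lies 12990 bp away on chromosome 14 with a separate site, and had folds of 12.4 (8.30 to 17.8) and 13.8 (10 to 18.6). The intervals of Psme1 and Psme2 did not overlap in either replicate. Psme2b, the copy of Psme2 on chromosome 11, had no peak in any library, and how reads that align equally well to both copies were placed is not given in the sources used here.

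Of the immunoproteasome catalytic subunits, 2 of 3 had a site, beside 39.3% of all genes. Psmb10 had folds of 10.2 (6.53 to 15.2) and 10.5 (7.25 to 14.8), and its summits lay 966 and 1191 bp downstream of the start, inside the gene, the farthest of any member. The replicate 2 summit thus lay outside the 1 kb window. When summits had to lie inside the window, the inducible or tissue-restricted genes with a site went from 4 to 3. Psmb9 had folds of 6.63 (3.82 to 10.8) and 8.21 (5.38 to 12.1), and its site at chr17:34187179-34187769 was the shortest of any member at 591 bp. Tap1, the peptide transporter gene of antigen presentation, is read from the other strand with a coding start 38 bp upstream of Psmb9. A different coding start of Tap1 lay nearest to the summits, at 67 and 29 bp, against 144 and 182 bp for that of Psmb9. Psmb8 had a peak in both replicates, at 6.63 (3.82 to 10.8) and 5.26 (3.09 to 8.46), and no site because the replicate 2 peak fell under the minimum. No promoter peak was listed for Psmb11 or Psma8 in any of the 4 libraries, and a peak list gives no level for them.

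Set side by side, the site calls of the counterparts differed in different directions. Psmb5 had a site, Psmb8 had a peak in both replicates without a site and Psmb11 had no peak. The intervals of Psmb5 and Psmb8 overlapped in replicate 1 (8.30 to 17.8 and 3.82 to 10.8) and not in replicate 2 (10.6 to 19.4 and 3.09 to 8.46). Psmb6 and Psmb9 both had sites, with intervals that overlapped in each replicate. Psmb7 had no site and Psmb10 did, again with overlapping intervals and with the Psmb10 summit of replicate 2 outside the promoter window. Psma7 had a site and Psma8 had no peak. Psmb11 lies 3411 bp from Psmb5 on the opposite strand of chromosome 14, so the Psmb5 site lay within 10 kb of Psmb11 without reaching its promoter.

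**Figure D3:**
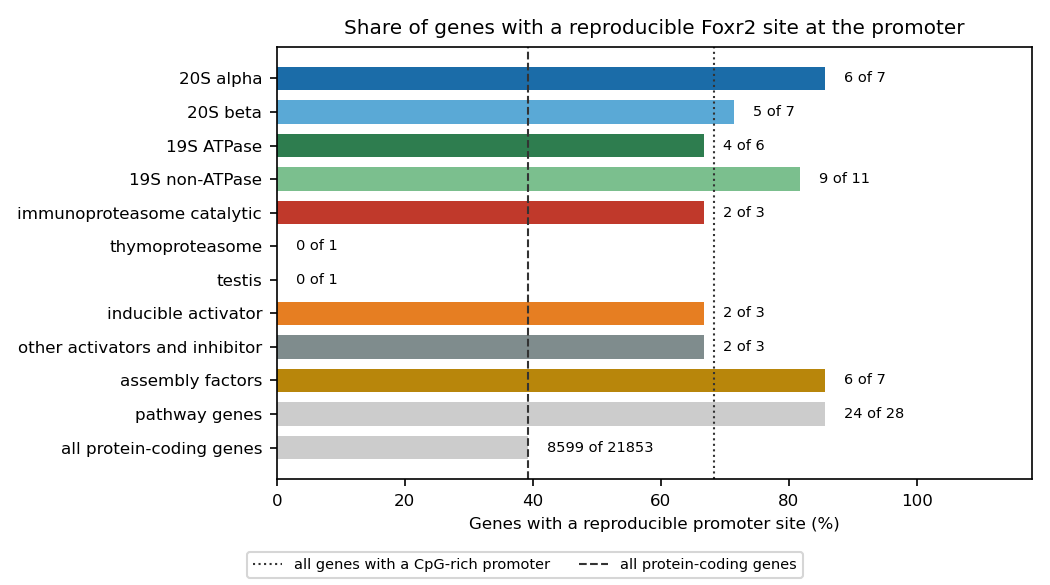
Percentage of genes in each class with a reproducible Foxr2 site at the promoter, with the count beside each bar, a dashed line for all protein-coding genes (39.3%) and a dotted line for all genes with a CpG-rich promoter (68.3%). The constitutive classes lie between 66.7% and 85.7%, and the thymoproteasome and testis genes are at 0 of 1 each.

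The other regulators had sites at 2 of 3 genes and the assembly factors at 6 of 7, beside 39.3% of all genes and 68.3% of those with a CpG-rich promoter. Psme3, the nuclear activator of the core, had folds of 26.5 (20.3 to 34.1) and 30.9 (25.0 to 37.8). Psme4, the activator PA200, had a site with folds of 10.2 (6.53 to 15.2) and 10.5 (7.25 to 14.8). Psmf1, an inhibitor of the core, had the lowest peaks of any member that had peaks, at 3.98 (1.97 to 7.41) and 4.60 (2.60 to 7.63), and no site. Among the assembly factors, Psmg4, a core assembly chaperone, was highest at 27.8 (21.4 to 35.6) and 33.5 (27.4 to 40.7), and Psmd9, a chaperone of the 19S base, was lowest of those with a site at 7.95 (4.82 to 12.5) and 6.90 (4.34 to 10.5). Psmd5 had folds of 13.3 and 21.4, and Psmg1, Psmg2 and Psmg3 lay between 7.95 and 12.5. Psmd10, on the X chromosome, had no peak in replicate 1 and 5.59 (3.33 to 8.87) in replicate 2. Over all genes with a promoter peak on the X chromosome, the median folds were also under the minimum of 6, at 5.74 and 5.91. Psmc3ip, which is not a proteasome gene, had a site with folds of 12.4 (8.30 to 17.8) and 15.1 (11.1 to 20.1).

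Sites were also common at genes that act with the proteasome but do not share the symbol. Of 28 such genes, 24 had a site (85.7%), beside 39.3% of all genes and 68.3% of all genes with a CpG-rich promoter. No share was tested, and the genes were listed by hand with earlier results of these data known. The 24 included all 4 further 19S or ubiquitin-processing genes (Adrm1, Sem1, Uchl5 and Usp14), both further assembly or import factors (Pomp and Akirin2) and all 5 ubiquitin or ubiquitin-activating genes. Nfe2l1, the transcription factor that drives proteasome gene expression, had folds of 25.2 (19.1 to 32.6) and 34.8 (28.5 to 42.1). Ubqln4, a shuttle that delivers ubiquitinated proteins, was highest at 39.3 (31.6 to 48.4) and 59.1 (50.8 to 68.4). Both Ubqln4 summits lay nearer to the start of Lamtor2 (249 and 226 bp) than to that of Ubqln4 (positions -485 and -508, where negative is upstream), so this peak cannot be assigned to either gene. At least one summit also lay nearer to another gene at Rps27a (Clhc1), Tapbp (Zbtb22), Uchl5 (Trove2) and Ufd1 (Cdc45). Ddi2, the protease that activates Nfe2l1, was lowest of those with a site at 6.19 (3.50 to 10.3) and 6.57 (4.09 to 10.1). Nploc4, Ubqln2, Tap2 and Nlrc5 had no site. Nlrc5, an activator of MHC class I and immunoproteasome genes, had a peak of 4.42 in replicate 1 only, and the antigen presentation genes as a class had sites at 3 of 5.

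Peak summits lay close to the starts. The median distance of a summit from the nearest coding start of the gene was 202 bp in replicate 1 and 185 bp in replicate 2, against 216 and 214 bp over all genes. The summits of the replicates lay a median of 58.0 bp apart over 45 members, under 100 bp at 27 of them, and at most 1064 bp apart, at Psme4, where they lay near different coding starts. Both summits were upstream of the start at 18 members, both at or downstream of it at 14, and on different sides at 13 of the 45. Over all genes with a peak in both replicates the shares were 33.0%, 41.8% and 25.1%. The upstream share was thus the lower of the first pair over all genes and the higher among members. Among members this order rests on 18 against 14 genes, a small difference that was not tested, so no contrast with all genes is drawn from it. All 5 ATPase genes with peaks in both replicates had both summits upstream, beside the 33.0% of all genes, and between 145 and 553 bp from the start. Another reproducible site lay in the gene or within 10 kb at 19 of the 50 members (38.0%), against 25.6% of all genes, but only Psmc2 had one in the gene body away from the promoter, against 8.29% of all genes. The members are shorter than other genes, with a median length of 11638 bp against 17380 bp.

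**Figure D4:**
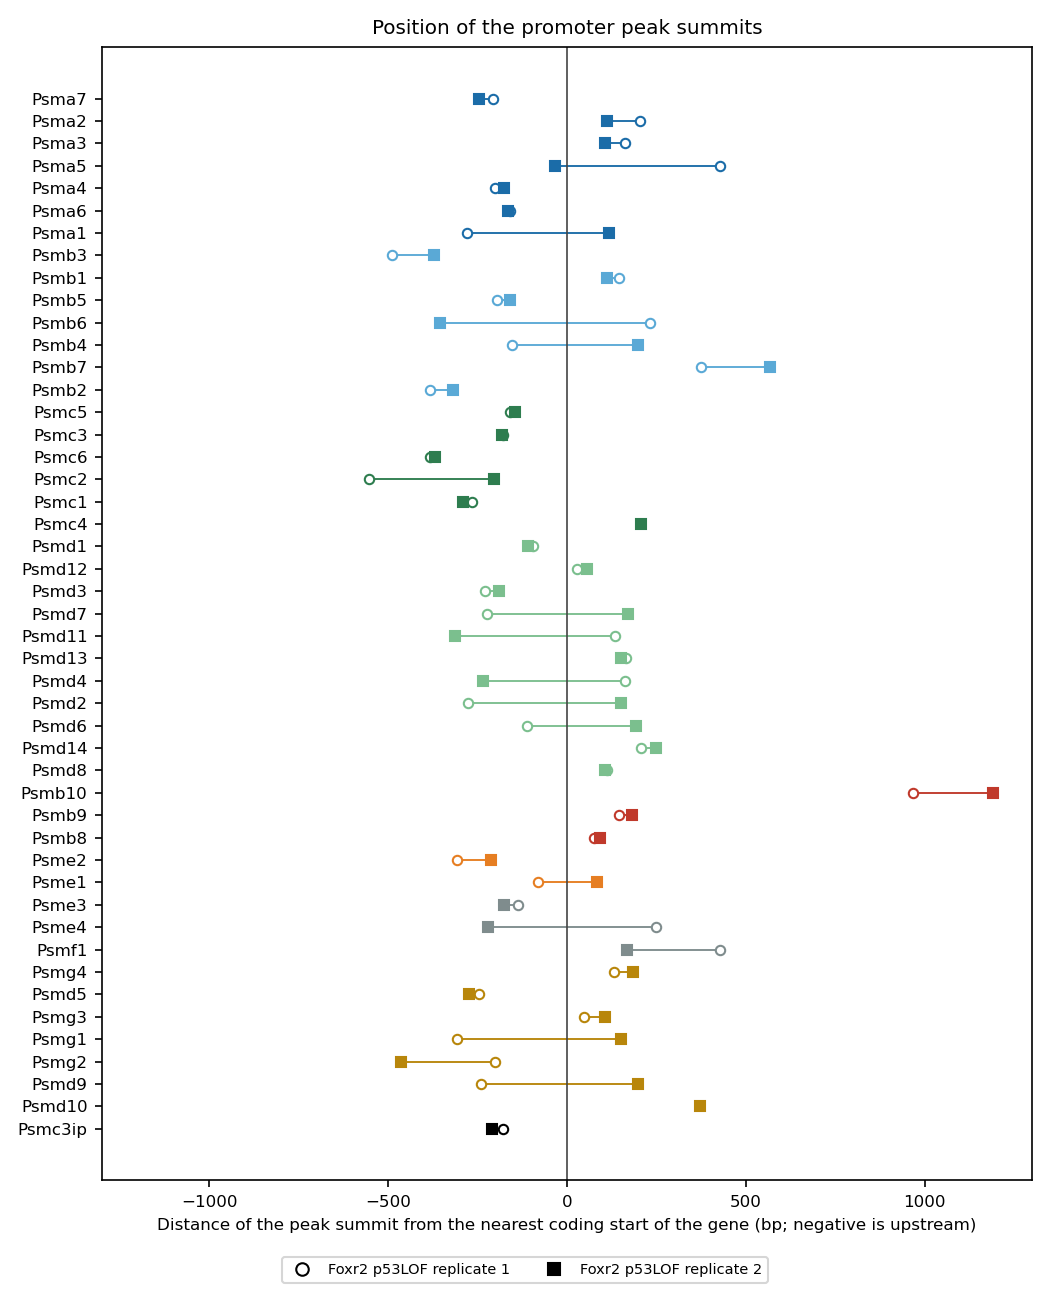
Distance in bp of each promoter peak summit from the nearest coding start of its gene (negative is upstream) in replicate 1 (open circles) and replicate 2 (filled squares), coloured by class as in the plot of folds, for the 47 genes with a peak. Summits lie on both sides of the start, with Psmb10 farthest at 966 and 1191 bp downstream, and the replicates of a gene with several starts can refer to different starts.

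Some of these sites lay between a pair of genes. An opposite-strand coding start lay within 1 kb upstream at 10 of the 50 members, against 8.74% of all genes, and 9 of these 10 had a site, beside 82.1% of all genes with such a partner. Without a partner, 28 of 40 members had a site, beside 35.3% of genes. At 7 of the 47 members with a peak, a summit lay nearer to the start of another gene: Ss18l1 at Psma7, Dnajc2 at Psmc2, Ftsj3 at Psmc5, Sirt3 at Psmd13, Tap1 at Psmb9, Rnf31 at Psme2 and Cep76 at Psmg2. At these promoters a peak cannot be assigned to either gene, and they include the highest and the third highest member, Psmc5 and Psme2. At the other 40, every summit was nearest to the member's own start. Nearness does not settle the assignment where the site also covers a partner's start, as at Psma2 (Mrpl32, 75 bp away) and Psmb1 (Tbp, 137 bp away).

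Of the 5 highest members, Psmc5, Psmb3 and Psme3 lie on chromosome 11 and Psmg4 on chromosome 13, where promoter peaks of all genes stood higher than on most chromosomes. Of 10 members there, 9 had a site (90.0%), beside 52.9% of all genes on chromosome 11, and of 40 members elsewhere 28 had one (70.0%), beside 38.3% of all genes elsewhere. The members on chromosome 11 had median folds of 13.3 and 15.8, against 9.94 and 10.7 for the others. Over all genes on chromosome 11 the median folds were 11.0 and 12.8, against 8.84 and 9.86 elsewhere, which is 1.25 and 1.30 times the median of all chromosomes. Chromosome 13, which holds Psmg4 and Psma2, stood higher still, with medians of 11.7 and 13.8. All 6 constitutive subunits on chromosome 11 had a site, beside 18 of 25 on other chromosomes. After division by the level of the chromosome, the lower folds of Psmc5, Psme2 and Psmb3 were 27.2, 25.7 and 24.4, those of Psme3 and Psmg4 were 21.2 and 21.0, and the next was 15.8 at Psmd1. These 5 members thus stayed above the rest on either scale, and the median lower fold of members with a site was 10.5 after the division.

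**Figure D5:**
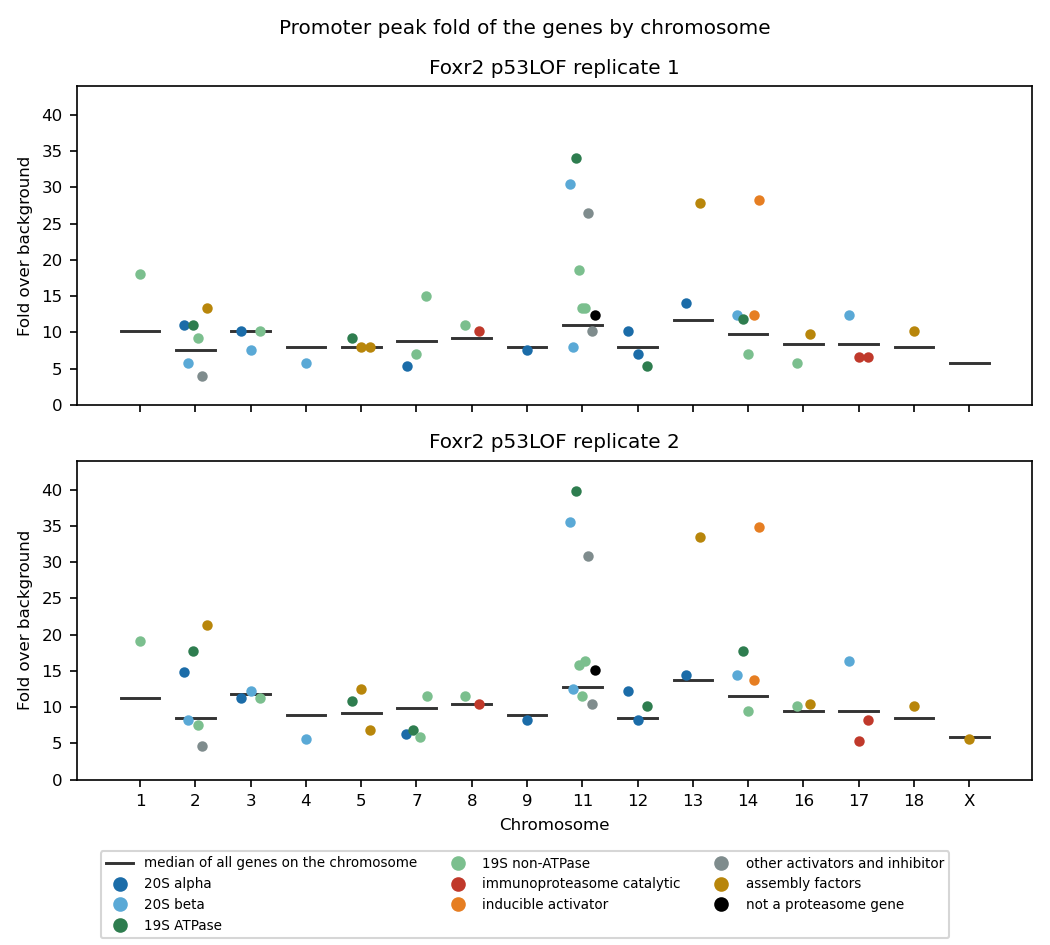
Fold of the promoter peak over background of each gene by chromosome in both Foxr2 p53LOF replicates, coloured by class, with black lines at the median fold of all genes with a promoter peak on that chromosome. The lines are higher on chromosomes 13 (11.7 and 13.8) and 11 (11.0 and 12.8) than on chromosome 2 (7.51 and 8.54), and Psmc5, Psmb3 and Psme3 lie well above the line of chromosome 11.

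Of the 8599 genes with a Foxr2 site at the promoter, 6306 had a CpG-rich promoter, and most members have such a promoter. The 300 bases from 250 before to 50 after the 5′-most coding start were called CpG-rich where the observed to expected CpG ratio was at least 0.6 and GC at least 50%. A site was present at 68.3% of all genes with a CpG-rich promoter and at 18.2% of other genes. CpG-rich promoters were held by 34 of 50 members (68.0%), against 42.3% of all genes, and 27 of the 34 had a site (79.4%), which is nearer to the share in CpG-rich genes than to that in all genes. Of the 16 other members, 10 had a site (62.5%). Among the constitutive subunits 23 of 31 were CpG-rich, and among the inducible and tissue-restricted genes 3 of 8 were (Psmb8, Psmb9 and Psma8). Psmb11 had a CpG ratio of 0.0639 and 46.3% GC. Psma8 was CpG-rich with a ratio of 0.764 and still had no peak, as did 10.5% of CpG-rich genes. The window of Psma6 lies at its upstream start and not at the start its site covers. Counted at any coding start, 38 members were CpG-rich and 30 of them had a site, beside 66.1% of 11253 genes. The constitutive genes were thus more often CpG-rich than the restricted genes. Within the constitutive set, a site was present at 18 of 23 CpG-rich genes (78.3%) and 6 of 8 others (75.0%), or at 20 of 25 (80.0%) and 4 of 6 (66.7%) when any coding start was counted. Within the restricted set, it was present at 1 of 3 CpG-rich genes and 3 of 5 others, or at 2 of 4 and 2 of 4 when any start was counted, so the small counts in that set turned on the start used. The part of promoter composition in the difference between the sets was not tested.

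Among the constitutive subunits, the letters of the ETS motif were found at genes of the 19S particle and at none of the 14 genes of the 20S core. ETS factors are a family of transcription activators that bind many housekeeping promoters. The letters CCGGAAG, read on either strand of the same 300 bases, were found at 17 of 50 members (34%), against 11.0% of all genes and 19.9% of genes with a CpG-rich promoter. They were present at 4 of 6 ATPase genes and 6 of 11 non-ATPase genes, and, outside the constitutive core, at Psma8, the testis core gene. The 10 constitutive genes that hold them are shown with the 10 bases on either side, on the strand that reads CCGGAAG, with the motif in capitals and positions in GRCm38.
Psmc1, chr12:100110164-100110190, minus strand: atcgccaccgCCGGAAGtgcatccacc
Psmc2, chr5:21785181-21785207, minus strand: gagccccatcCCGGAAGtgctcactgg
Psmc3, chr2:91053952-91053978, minus strand: tgctgcacaaCCGGAAGaggcgggagg
Psmc6, chr14:45329714-45329740, plus strand: ggcgggccagCCGGAAGgggcggagcc
Psmd2, chr16:20651616-20651642, minus strand: gtcctccagaCCGGAAGcgccctgcgg
Psmd4, chr3:95042723-95042749, minus strand: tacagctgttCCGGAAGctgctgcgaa
Psmd6, chr14:14120974-14121000, minus strand: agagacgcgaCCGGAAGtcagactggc
Psmd7, chr8:107588439-107588465, minus strand: ggcggtcaaaCCGGAAGgggaggtgct
Psmd11, chr11:80428594-80428620, minus strand: aaacacacacCCGGAAGacccgccctc
Psmd12, chr11:107479501-107479527, minus strand: gtcactcgcaCCGGAAGtcgcccgctc
Among the members, these letters were about as frequent with a site as without. They were present at 13 of 37 members with a site (35.1%) and at 4 of 13 without (30.8%), whereas over all genes the shares were 19.6% with a site and 5.35% without. Psmc1 and Psmd2 held the letters without a site, Psma8 and Psme2b held them without any peak, and of the 5 highest members Psme3 held them, at a pair of positions, while Psmc5, Psmb3, Psme2 and Psmg4 did not.

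The other 8 motifs were counted in the same windows on both strands. The YY1 letters AAGATGGCG were found at 4 members (8.0%), against 1.72% of all genes, and all 4 (Psmb6, Psmc5, Psmd7 and Psmd11) had a site, beside 81.1% of all genes with these letters. The SP letters GGGCGG were at 30 members (60.0%, all genes 43.8%), and the NRF1 letters GCGCANGCG at 7 (14.0%, all genes 8.44%). Members were close to all genes for the antioxidant response element TGACNNNGC (14.0% and 12.5%) and for the NFY letters CCAAT (36.0% and 39.0%). The TATA letters TATAAA were at 4 members (8.0%, all genes 12.6%). The interferon response letters GAAANNGAA were at 7 members (14.0%, all genes 8.54%) and the NF-kappaB letters GGGANTTTC at 1 (2.00%, all genes 1.15%), and neither was found at any of the 8 inducible or tissue-restricted genes. SP letters can overlap other GC-rich motifs, and a match is a description of the window and not a binding site.

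Processed copies of the family were also examined. Psmb5-ps, Psmb6-ps, Psmb6-ps2 and Psmb7-ps2, the 4 pseudogenes of the annotation that match the symbols, had no peak in any of the 4 libraries.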

How the data were processed

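Foxr2 binding was profiled by CUT&RUN in 2 replicates each of the Foxr2 p53LOF line and the V5 control group. Per the labels and methods, the authors trimmed reads with Trimmomatic (0.39), aligned them to mm10 with BWA (0.7.17), removed duplicates with Picard (2.26.6) and called peaks per library with MACS2 (2.2.7.1). The deposited fold is a ratio of summit fragments plus 1 to background plus 1. The deposited p and q values are −log10 values, and the deposited score is derived from the −log10 q and was not used. Read totals are not in the peak lists, so the precision of a fold was taken from the summit fragments, recovered with the background that makes them whole (1.26 and 2.04 in the Foxr2 p53LOF replicates, 1.69 and 0.642 in the controls).

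The filters of the study's methods were applied here, and its intersection with open chromatin was not repeated. Peaks of both replicates that overlapped by at least 1 bp gave 11947 sites. Each gene took the promoter site with the highest lower fold. Coordinates are GRCm38 (the build of mm10), counted from 1, and 0 peaks ran past a chromosome end. Every gene whose symbol matched was named or counted, with full values for the restricted genes, their counterparts, constitutive genes without a site and the highest and lowest gene of each class. Of 29 related genes listed, 1 was not matched. The members and lists were chosen with earlier results of these data known. Counts are described beside all genes, with no test. Scripts ran in Python 3.11.15 with numpy 2.4.6, scipy 1.17.1 and matplotlib 3.10.9 and were tested on simulated data.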

Additional observations from a re-analysis of the deposited data

How the results depend on the processing

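The counts of members with a site (37), of constitutive subunits (24) and of inducible or tissue-restricted genes (4) stayed within 1.5 times of these values under each of the alternatives tried, which varied the promoter window, the starts used, the minimum fold and q, the length limit, the control filter and the overlap of replicates. They ranged from 26 to 45, from 17 to 30 and from 3 to 5. The lowest counts of members and constitutive subunits came with a minimum fold of 10 and the highest with no minimum on fold or q. Leaving out replicate 1 or replicate 2 of Foxr2 p53LOF gave 42 or 39 members, and leaving out either control gave 37. The share of 39.3% of all genes holds for the main settings only. It is not given under the alternatives, so the difference between members and all genes was not followed across them. The median lower fold of members with a site was 11.0 and moved by more than the spread between replicates only with a minimum fold of 10, to 12.4, since fewer genes with low folds remain. No paired analysis was possible because no result comes from a fit between the groups, and no source used here links same-numbered samples of the 2 groups. A fold near 6 rests on 13 to 18 fragments, so membership of genes at that level is limited by depth.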
